A study of Schmidtea mediterranea with 2 samples.

Results

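Stem cell beads were defined on the planarian Slide-seqV2 puck as the beads that held at least 50 unique molecular identifiers (UMIs, each a counted transcript), at least 1 UMI of piwi-1 (SMED30007406) and 0 of mat2a (SMED30021445). There were 968 such beads among the 8789 beads with at least 50 UMIs, which is 11%. Another 632 beads held mat2a without piwi-1, 169 held both genes, and 7020 held neither. The puck carried cryosections of Schmidtea mediterranea worm fragments embedded in OCT, with no treatment or genotype in the labels, and 1 library was sequenced in 2 runs. The counts used are those of both runs after correction of Read 1 with Syrah, a program that repairs bead barcodes before counting. With 1 puck there were no replicates, so no test was possible and every interval covers counting error only.

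Planarians keep a population of adult stem cells, the neoblasts, which lie in the parenchyma around the gut and are the source of new cells during tissue turnover and regeneration. piwi-1 encodes a PIWI-family Argonaute protein and is the standard transcript by which neoblasts and their recent progeny are recognised. mat2a encodes methionine adenosyltransferase, which makes the methyl donor S-adenosylmethionine, and served here as the marker of the intestine, a branched organ of phagocytes and goblet cells that reaches through the body. A Slide-seq bead takes up RNA from whatever lies above it, so a bead can hold transcripts of several cells or of part of 1 cell, and fewer stem cells under a bead cannot be told apart from less piwi-1 RNA per cell.

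**Figure D1:**
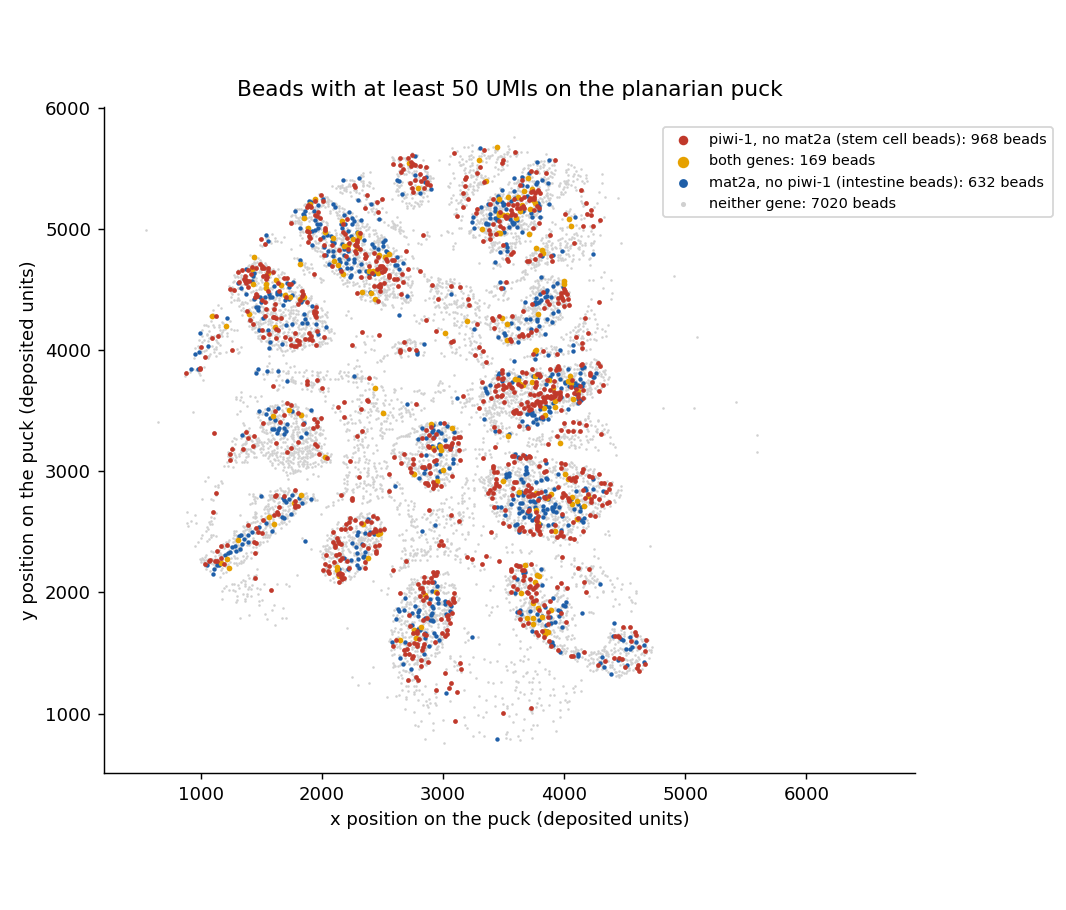
Position on the puck of the 8789 beads with at least 50 UMIs, with x and y in the units of the deposited coordinates, which are not stated. Stem cell beads (red, 968) lie among intestine beads (blue, 632), beads with both genes (yellow, 169) and beads with neither gene (grey, 7020), mostly within separate pieces of tissue.

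Most stem cell beads held a single piwi-1 transcript. There was 1 UMI on 671 beads (69.3%), 2 on 188 (19.4%), 3 on 52, between 4 and 7 on 51, and between 9 and 13 on the remaining 6. Together the stem cell beads held 1503 of the 1805 piwi-1 UMIs on beads of at least 50 UMIs (83.3%), and the beads with both genes held the other 302. These counts chose the beads and are given as a description. The 6 beads with the most piwi-1 are listed by their 14-base barcodes, which are the addresses that tie their transcripts to a position, in lower case because no base is singled out.

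bead with 13 piwi-1 UMIs of 2596 UMIs in all: ggcaagtcttccca
bead with 12 piwi-1 UMIs of 1293: gtcgtacagcacat
bead with 11 piwi-1 UMIs of 1413: tcaggcagtgccga
bead with 11 piwi-1 UMIs of 2300: ccatgcctacccca
bead with 10 piwi-1 UMIs of 3801: actgttgcgttgac
bead with 9 piwi-1 UMIs of 1976: caaaacgcaagccg

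The beads with 13 UMIs and with 11 of 1413 UMIs lay 54.3 units apart. The 21 other genes of the stem cell list described below made up between 10.6% and 25.2% of the UMIs of these 6 beads, and the 13 genes that are on the intestine list alone between 0.153% and 0.774%.

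Finding a piwi-1 UMI depended on how deeply a bead was sampled. The share of beads with piwi-1 and no mat2a was 3.54% among beads of 50 to under 100 UMIs (95% interval 2.83 to 4.36, Clopper-Pearson), 5.60% from 100, 11.9% from 200, 16.8% from 400 and 29.7% (26.9 to 32.7) from 800 UMIs upward. Stem cell beads accordingly had a median of 476.5 UMIs (50 to 5335), against 153 on beads with neither gene. At the threshold of 50 UMIs, 7 of 330 beads with 50 to 54 UMIs had piwi-1 without mat2a, as did 8 of 387 barcodes with 45 to 49 UMIs. A bead without a piwi-1 UMI is therefore not shown to lack the transcript.

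At equal depth, piwi-1 was about as frequent on beads off tissue, which can carry free RNA, as over tissue. Beads counted as lying over tissue if, in the counts made without Syrah, 10 UMIs or more were found on at least 25% of the 50 barcodes closest to them. piwi-1 was on 14.4% (13.5 to 15.3) of 6177 beads over tissue (median 237 UMIs), against 9.49% (8.4 to 10.7) of 2612 beads off tissue (median 123 UMIs). With each bead thinned to 50 UMIs, the shares were 2.49% over tissue and 2.70% off tissue, and piwi-1 made up 5.67 of 10000 UMIs over tissue against 5.82 off tissue. The share over tissue thus did not exceed that off tissue, and a single piwi-1 UMI does not by itself show a stem cell under the bead. Beads called off tissue still held at least 50 UMIs each, and the source of their RNA was not tested. Of the stem cell beads, 76.0% lay over tissue, compared with 81.3% of intestine beads and 90.5% of beads with both genes. Among the depth-matched pairs described below, it was 75.5% of stem cell beads and 77.0% of beads with neither gene.

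For the comparison across genes, each stem cell bead was paired with 1 bead that held neither gene and had the nearest total within 10%. This gave 935 pairs with a median of 457 UMIs per bead in both groups, 577035 UMIs on stem cell beads and 565628 on the depth-matched beads. The 33 stem cell beads left out had 2032 to 5335 UMIs and found no partner. A gene's level was its share of the pooled UMIs of a group, without piwi-1 and mat2a. Of 5031 genes with at least 20 UMIs, 892 (17.7%) were at least 1.5 times higher on stem cell beads and 643 (12.8%) at least 1.5 times lower, and the median ratio was 1.03. At counts near 20 UMIs, counting error alone can carry a ratio past this fold, and for how many genes it did so was not tested. With 3 partners for each bead, which only 654 stem cell beads found, the split turned to 606 higher and 817 lower of 3978 genes. The comparison group then held 1962 beads, which changes how a gene reaches 20 UMIs, and the cause of the turn was not tested. Among the 1144 genes with at least 100 UMIs, 71 (6.21%) were higher and 87 (7.60%) lower by that fold, and 5% of genes lay below 0.627 and 5% above 1.55.

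The study's list of stem cell markers has 21 genes besides piwi-1, all with at least 20 UMIs here, and 5 of them were at least 1.5 times higher on stem cell beads, against 17.7% of all genes, while 0 were lower by that fold, against 12.8%. Of the 19 with at least 100 UMIs, 4 were higher by that fold, against 6.21% of all such genes, and 16 had a ratio above 1, against 48.3%. Over the whole list, 18 of the 21 ratios were above 1, against 52.3% of all genes, and the median ratio of the list was 1.15. These genes are named by identifier only and their functions are not given in the sources used here. The study compared its genes with known markers from a single-cell atlas, and its table marks these as differentially expressed, so which of them were kept may depend on these same beads and their direction is not taken as independent evidence.

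SMED30029763 carried most of the difference. It had 15533 UMIs on stem cell beads and 7430 on the depth-matched beads, or 2.70% against 1.31% of all UMIs, a ratio of 2.05 (2.0 to 2.11). Per bead, its share of UMIs had a median of 1.95% on stem cell beads (quartiles 0.989% and 3.79%), against 0.889% on depth-matched beads (0.374% and 1.72%). The quartile ranges of both groups overlap, and the gene was also present on 84.2% of the depth-matched beads, compared with 94.2% of stem cell beads. Over the 13 alternative settings its ratio stayed between 1.96 and 2.72.

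The other members past the fold limit were scarcer. SMED30001362 had 223 UMIs on stem cell beads and 115 on depth-matched beads, a ratio of 1.91 (1.51 to 2.41), which was 1.27 when each bead's share was averaged in place of pooling. SMED30014446 had 422 and 244 UMIs in the same order, a ratio of 1.70 (1.45 to 2.0), and was found on 27.5% of stem cell beads against 19.1% of depth-matched beads. SMED30031463 reached 1.62 (1.20 to 2.21) from 117 UMIs on stem cell beads and 71 on depth-matched beads, but 1.40 (0.993 to 1.99) with beads over tissue only and 1.34 (0.925 to 1.96) with partners from the same tissue piece. SMED30034055 had a similar ratio of 1.62, but from 38 and 23 UMIs, and its interval of 0.943 to 2.85 includes 1. SMED30009284 at 1.32 (1.17 to 1.5) and SMED30025522 at 1.28 (1.16 to 1.42) lay below the fold limit with intervals above 1.

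SMED30016196, which is on both the stem cell and the intestine list, had the next highest counts and is given with the intestine genes. The members with the most UMIs after it differed little. SMED30013735, with 7623 UMIs on stem cell beads and 6874 on depth-matched beads, had a ratio of 1.09 (1.05 to 1.13). SMED30035193, with 5893 and 6120 UMIs, had a ratio of 0.946 (0.913 to 0.981), an interval below 1. Its direction turned without depth matching, to 1.04 (1.01 to 1.07). Without SMED30029763 and SMED30016196, the 19 remaining genes summed to 4.94% of UMIs on stem cell beads and 4.64% on depth-matched beads, a ratio of 1.06 (1.05 to 1.08). Nearly every bead carried some stem cell list RNA, since 933 of 935 stem cell beads (99.8%) and all 935 depth-matched beads held at least 1 UMI of the list, with a median of 11 and 10 different genes. Besides piwi-1, which chose the beads, the difference in UMIs within the stem cell list thus lay mainly in SMED30029763. The 19 remaining genes differed much less when summed, though their median ratio was 1.14.

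**Figure D2:**
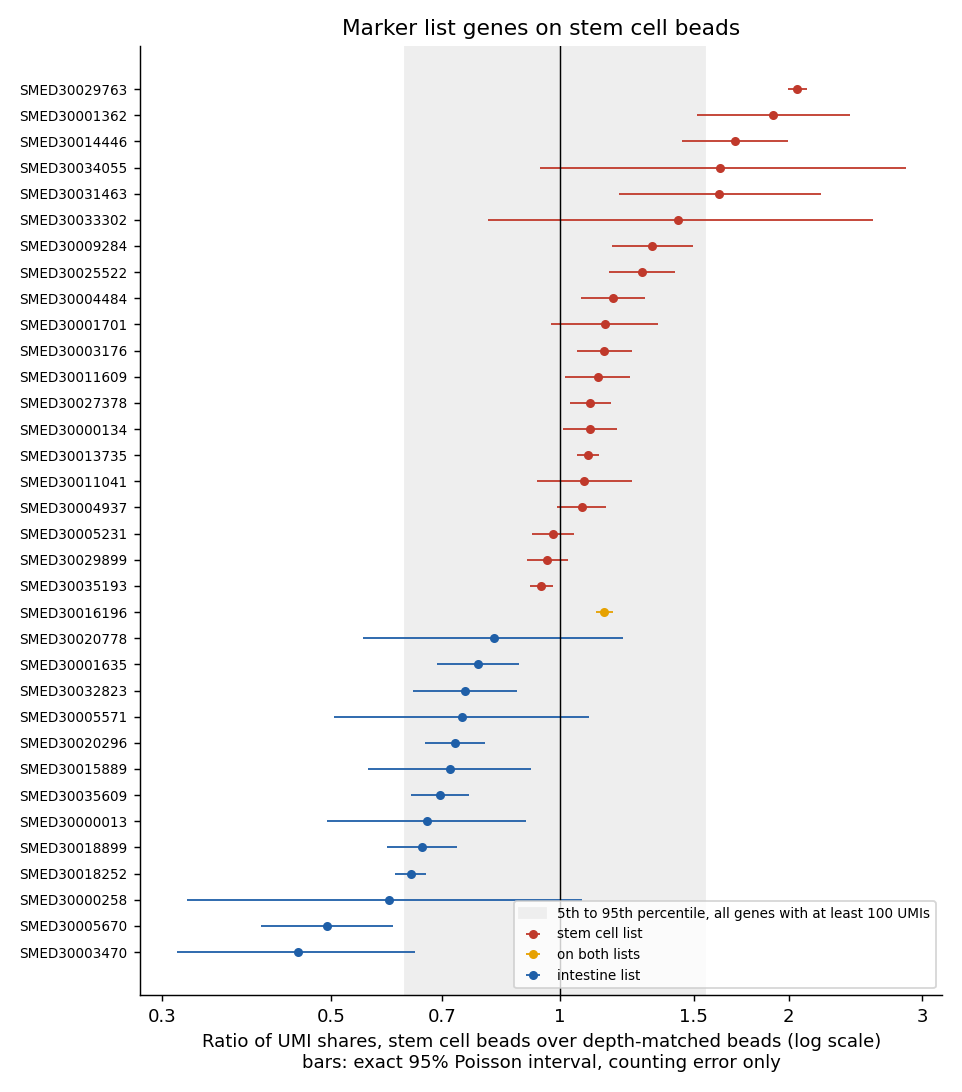
Ratio of each list gene's share of UMIs on stem cell beads over that on depth-matched beads with neither gene (log scale), with exact 95% Poisson intervals that cover counting error only. SMED30029763 stands at 2.05 above most of the stem cell list (red), while the 13 genes on the intestine list alone (blue) lie between 0.453 and 0.819, and grey shading spans 0.627 to 1.55, beyond which lie 5% of all genes with at least 100 UMIs on each side.

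Transcripts of intestine markers were scarcer on stem cell beads. All 13 genes on the intestine list alone had ratios below 1, against 47.7% of all genes, and 5 of them were at least 1.5 times lower, against 12.8%. Of the 12 with at least 100 UMIs, 12 lay below 1, against 51.7% of such genes, and 4 were lower by that fold, against 7.60%. Summed, they made up 1.13% of UMIs on stem cell beads and 1.69% on depth-matched beads, a ratio of 0.668 (0.647 to 0.689). Both groups were chosen to lack mat2a. As with the stem cell list, which intestine genes the study kept may depend on these same beads. The direction of the intestine genes, here and in the comparisons below, is therefore not taken as independent evidence. SMED30018252, the most counted of the 13, had 2945 UMIs on stem cell beads and 4542 on depth-matched beads, a ratio of 0.637 (0.608 to 0.668). The lowest ratios were 0.453 (0.313 to 0.646) for SMED30003470, from 47 UMIs on stem cell beads and 102 on depth-matched beads, and 0.495 (0.404 to 0.603) for SMED30005670, from 152 and 302 UMIs. With 3 partners per bead these were 0.679 (0.376 to 1.16) and 0.691 (0.509 to 0.925), and SMED30003470 stood at 0.776 with bead shares averaged. The intestine genes were nevertheless present on 81.5% of stem cell beads, compared with 83.6% of depth-matched beads, and their median share per bead was 0.783% against 1.25%. SMED30016196, on both lists, was slightly higher on stem cell beads at 2.25% against 1.96% of UMIs, a ratio of 1.15 (1.12 to 1.17).

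Outside the lists, identifiers are not paired with gene names in the files, so only the ends of the ranking are given, among genes with at least 100 UMIs. The highest ratio belonged to SMED30031235, with 183 UMIs on stem cell beads and 60 on depth-matched beads, a ratio of 3.0 (2.23 to 4.08). Its UMIs were spread over 132 stem cell beads and 55 depth-matched beads, with at most 6 on any bead, and its ratio ran from 2.23 to 5.37 over the 13 alternative settings. SMED30029898 followed at 2.23 (1.47 to 3.44), from 77 and 34 UMIs, and ran from 1.53 to 2.44 over the same settings. The lowest ratios each rested on a single depth-matched bead. SMED30025454 had 21 UMIs on stem cell beads and 88 on depth-matched beads, a ratio of 0.234, but 65 of the 88 lay on 1 bead and the ratio was 0.725 with the top bead of each group left out and 0.984 (0.472 to 2.05) over tissue only. SMED30027307 had 27 and 112 UMIs, a ratio of 0.237, of which 67 lay on 1 depth-matched bead, and its ratio was 0.50 without the top beads and 0.775 (0.445 to 1.34) over tissue only. None of the 34 list genes depended on a single bead in this way, the largest change being by a factor of 1.08.

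The differences widened with the number of piwi-1 UMIs on the bead. SMED30029763 made up 2.11% of UMIs on the 661 stem cell beads with 1 piwi-1 UMI against 1.26% on their depth-matched partners, 3.11% against 1.46% on the 182 beads with 2, and 4.12% against 1.33% on the 92 beads with 3 or more. The ratios were 1.68 (1.62 to 1.75), 2.12 (2.01 to 2.25) and 3.09 (2.91 to 3.28). For the 13 intestine genes the ratios were 0.759 (0.730 to 0.789), 0.608 (0.566 to 0.652) and 0.437 (0.401 to 0.476) over the same classes. Summed, the 19 remaining stem cell list genes changed little, at 1.05, 1.07 and 1.11, but their median ratio was 1.09, 1.13 and 1.28. The shared gene SMED30016196 stood at 1.08, 1.18 and 1.32. These classes differ in depth, with medians of 374, 543 and 930 UMIs, but each was compared with partners of the same depth.

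Single genes followed this grading to different degrees. SMED30031235 had ratios of 1.88 (1.26 to 2.83), 4.93 (2.28 to 12.2) and 5.36 (2.88 to 10.9) on beads with 1, 2 and 3 or more piwi-1 UMIs. SMED30029898 did not follow it, at 2.35 (1.39 to 4.12), 2.80 (1.05 to 8.66) and 1.37 (0.471 to 4.25). SMED30025522 stood at 1.11, 1.49 and 1.70. SMED30014446 at 1.52, 1.18 and 3.06, and SMED30001362 at 1.71, 1.46 and 2.92, were highest in the class with most piwi-1 but not in order between the others. Of the 19 stem cell list genes with at least 100 UMIs, 11 had their highest and 5 their lowest ratio on beads with 3 or more piwi-1 UMIs, and 6 increased and 1 decreased at both steps. Among all 1144 such genes, 34.3% were highest and 41.2% lowest in that class, and 16.3% increased and 20.1% decreased at both steps. Of the 12 intestine genes with that many UMIs, 9 had their lowest and 0 their highest ratio there, and 7 decreased and 0 increased at both steps, among them SMED30018252 at 0.722, 0.589 and 0.415.

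**Figure D3:**
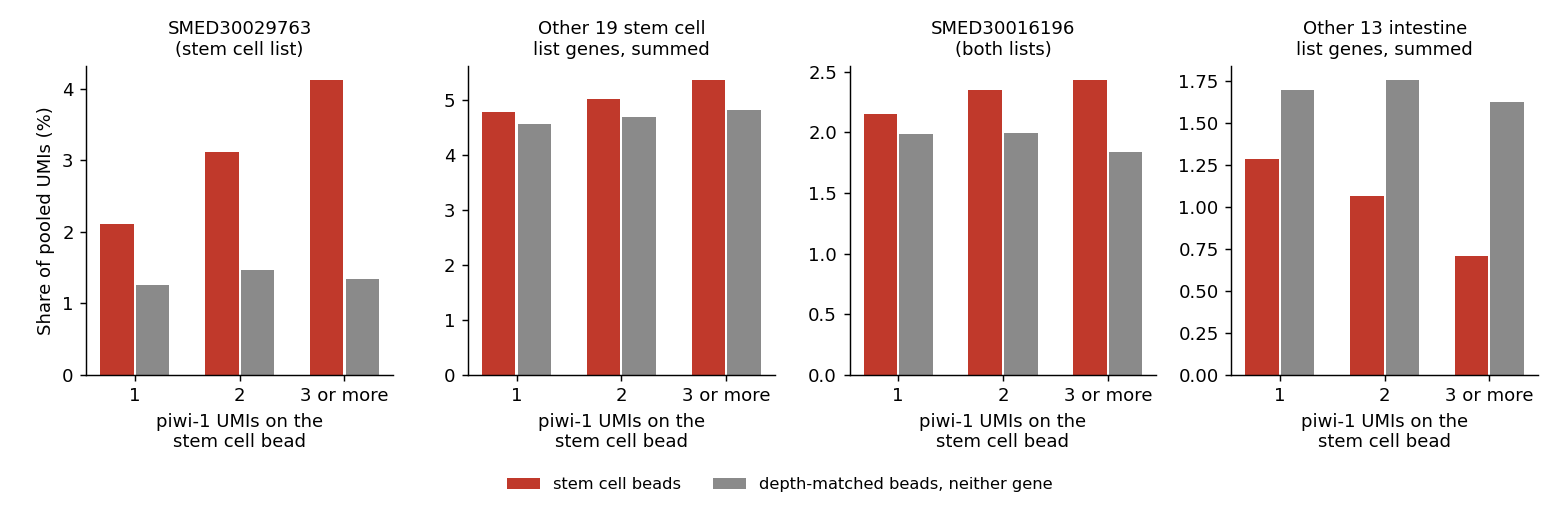
Share of pooled UMIs (%) on stem cell beads (red, left of each pair) and on depth-matched beads with neither gene (grey), by the number of piwi-1 UMIs on the stem cell bead. SMED30029763 makes up 2.11%, 3.11% and 4.12% of UMIs on stem cell beads while their partners stay between 1.26% and 1.46%, and the intestine genes fall to 0.709% against 1.62% in the last class.

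The same contrasts held within bins of depth, less clearly for the intestine genes on shallow beads. The ratio of SMED30029763 was 2.57 (1.90 to 3.51) on beads of 50 to under 100 UMIs, 2.0 from 100, 2.23 from 200, 2.35 from 400 and 1.91 (1.84 to 1.98) from 800 UMIs upward. The intestine genes had ratios of 0.897 (0.649 to 1.24) and 0.886 (0.738 to 1.06) in the first 2 bins, where the intervals include 1, and 0.561, 0.623 and 0.698 in the deeper bins. The 19 remaining stem cell list genes had their highest ratio on the shallowest beads, at 1.37 (1.16 to 1.63), and lay between 1.03 and 1.12 in the other bins.

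Drawn separately by place, the difference was larger over tissue than off it. In 702 pairs over tissue, SMED30029763 made up 2.71% of UMIs on stem cell beads and 1.27% on depth-matched beads, a ratio of 2.13 (2.07 to 2.20). In 228 pairs off tissue, it made up 2.50% on stem cell beads and 1.57% on depth-matched beads, a ratio of 1.59 (1.49 to 1.70). The intestine genes gave ratios of 0.661 (0.638 to 0.684) over tissue and 0.757 (0.698 to 0.820) off tissue. The intervals over and off tissue do not overlap for either, though they cover counting error only, and the median depth was 532 UMIs over tissue and 283 off tissue.

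Set against the 2 other kinds of marked beads at equal depth, stem cell beads differed mostly in the same genes. In 632 pairs with intestine beads, SMED30029763 made up 2.75% of UMIs on stem cell beads and 0.927% on intestine beads, a ratio of 2.96 (2.86 to 3.07), and the 13 intestine genes 1.14% against 2.50%, a ratio of 0.455 (0.439 to 0.471). The 19 remaining stem cell list genes gave 1.01 (0.995 to 1.03). In 168 pairs with beads that held both genes, the ratio of SMED30029763 was 1.51 (1.45 to 1.58), that of the intestine genes 0.605 (0.574 to 0.639) and that of the 19 genes 0.944 (0.919 to 0.970). Both of these groups were chosen by mat2a, an intestine gene, so the ratios are a description.

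The tissue lay on the puck as separate pieces, and stem cell beads occurred in each of the 13 large enough to be described. Tissue was outlined, after the data were seen, where the 50 nearest barcodes averaged at least 60 UMIs, and 13 pieces with at least 100 beads held 709 of the stem cell beads (73.2%) among 5431 beads. The share of stem cell beads ran from 6.36% (25 of 393 beads, 4.16 to 9.25) in piece 7 and 7.91% (25 of 316) in piece 9 to 17.4% (104 of 597, 14.5 to 20.7) in piece 3, with a median of 13.5% over pieces. With the depth of the beads taken into account, piece 7 held 0.551 times the number of beads with piwi-1 that depth predicts and piece 9 0.675 times, while piece 3 held 1.24 times that number. Which fragment or body region each piece came from is not given in the labels.

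With partners drawn from the same piece, the direction of the main differences was shared by all 13 pieces. SMED30029763 was higher on stem cell beads in 13 of 13 pieces, with ratios of 1.61 to 3.07, and the intestine genes were lower in 13 of 13, with ratios of 0.489 to 0.894. In pieces 7, 10 and 13 the interval of the intestine ratio included 1. The 19 remaining stem cell list genes were above 1 in 8 of 13 pieces, from 0.884 to 1.15. Pooled over the 641 pairs within pieces, the ratios were 2.10 (2.03 to 2.17), 0.601 (0.580 to 0.624) and 1.05 (1.03 to 1.07) for these 3 groups. Pieces of 1 puck share a library and are not replicates.

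**Figure D4:**
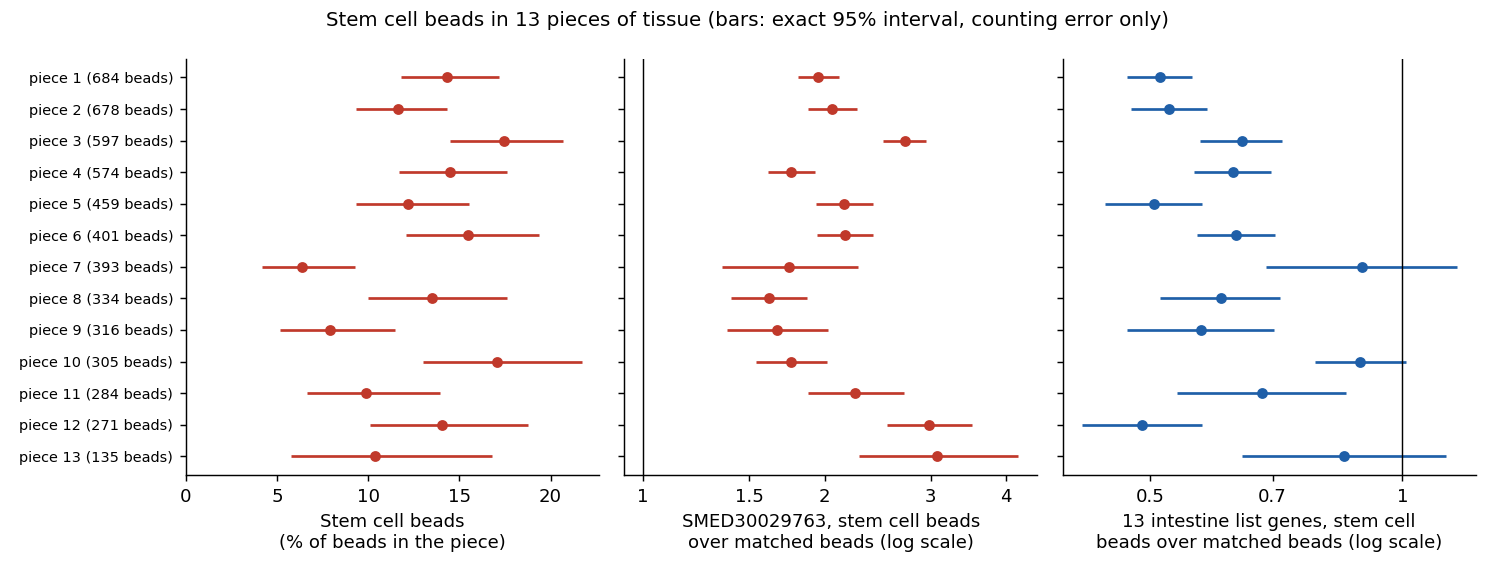
Share of stem cell beads (left, %), ratio of SMED30029763 (middle, log scale) and ratio of the 13 intestine genes (right, log scale) on stem cell beads over depth-matched beads, in each of 13 pieces of tissue with exact 95% intervals for counting error. All 13 points of SMED30029763 lie above 1 and all 13 of the intestine genes below 1, and piece 7 has the lowest share of stem cell beads at 6.36%.

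Stem cell beads lay near each other and, at short range, away from mat2a. The nearest bead of a stem cell bead held piwi-1 in 203 of 935 cases (21.7%), against 133 (14.2%) for depth-matched beads, which is 1.48 and 0.981 times the number expected from the depth of those neighbours. Over the 20 nearest beads, within a median of 70.5 units, the figures were 1.27 around stem cell beads and 0.927 around depth-matched beads, a ratio of 1.37. The sets of neighbours overlap, so the same beads were counted many times and no interval is given. By 100 beads they had come down to 1.08 and 0.971. Neighbours with mat2a showed the reverse, at 0.703 times the expected number around stem cell beads and 1.16 around depth-matched beads for the nearest bead. Around stem cell beads this was 0.877 over 20 beads, 0.981 over 50 and 1.03 over 100, against 1.04, 1.05 and 1.04 around depth-matched beads.

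**Figure D5:**
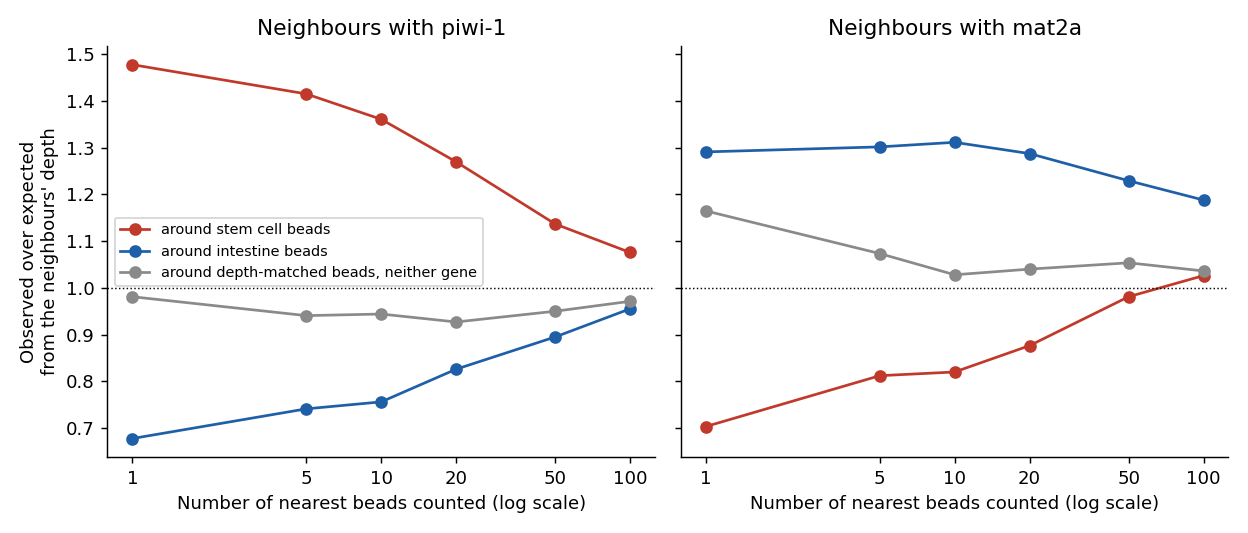
Observed over expected number of beads with piwi-1 (left) and with mat2a (right) among the nearest 1 to 100 beads (log scale), around stem cell beads (red), intestine beads (blue) and depth-matched beads with neither gene (grey). Around stem cell beads piwi-1 falls to 1.08 at 100 beads from 1.48 at the nearest bead, and mat2a is at 0.703 for the nearest bead and 1.03 over 100 beads.

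SMED30029763 was also higher, and the intestine genes lower, on the beads beside stem cell beads than on beads away from piwi-1. Beads that held neither gene and had a stem cell bead as nearest neighbour were paired by depth with beads that had no piwi-1 among their 5 nearest (723 pairs, median 166 UMIs). SMED30029763 made up 1.77% of UMIs on the beads next to a stem cell bead and 1.05% on the others, a ratio of 1.68 (1.60 to 1.77). The intestine genes were lower next to stem cell beads, at 1.39% against 1.98%, a ratio of 0.702 (0.670 to 0.737), and the 19 remaining stem cell list genes gave 1.02 (0.987 to 1.05). The comparison beads were chosen to lie away from piwi-1, which can widen these ratios by construction. The source of the RNA was not tested.

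Within pieces, the median distance to the edge of the tissue differed little between stem cell beads and their partners. Their median distance to the nearest barcode outside the piece was 71.5 units, against 70.2 units for depth-matched beads of the same pieces, and 29.2% (25.7 to 32.9) against 28.4% (24.9 to 32.1) lay within 50 units of it. The upper quartile of the distance to the edge was larger for stem cell beads, at 114 against 101 units. Stem cell beads also lay closer to other beads with piwi-1, at a median of 25.5 units against 33.4. They lay farther from beads with mat2a, at 42.0 against 35.3 units. In the deepest zone, 150 units or more from the edge, 91 beads held piwi-1 where 68.6 were expected from depth, 1.33 times as many. The figure was 0.921 times within 50 units of the edge, 0.924 times from 50 units and 1.02 times from 100 units. Beads with mat2a were at 0.934, 1.11, 1.14 and 1.12 times their expected number, from the edge inward. In the deepest zone 21.7% of 351 beads were stem cell beads, against 9.87% of 1935 beads within 50 units of the edge, with median depths of 391 and 205 UMIs. The pieces differed in this zone: beads with piwi-1 numbered 28 of 99 in piece 2, 20 of 55 in piece 3 and 19 of 40 in piece 5, which is 1.48, 2.05 and 2.43 times the number that depth predicts, but 19 of 128 in piece 1, which is 0.712 times.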

How the data were processed

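The deposited values are whole-number UMI counts per gene and bead barcode, which the authors made with the WARP Slide-seqV2 pipeline v3.1.2 from the original reads and from reads corrected with Syrah, without normalization. The methods name alignment to schMedS3, while the tables use SMED30 identifiers, and the version of each identifier's annotation is not given in the sources used here. A deposited table gives 2 positions per barcode in other, unstated units. The Syrah-processed counts of both runs (3364828 UMIs on 33518 of 83348 barcodes, 22150 genes) were used, and the other 3 tables served as alternatives. All columns of counts were used.

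Pairing of beads (seed 1) and all ratios used numpy 2.4.6 and scipy 1.17.1 under python 3.11.15, with figures from matplotlib 3.10.9. Ratios of pooled UMI shares have exact conditional 95% Poisson intervals and shares have Clopper-Pearson intervals. Genes needed 20 UMIs over both groups, and a fold of 1.5 was used in place of a test. Expected numbers of beads with a gene were taken from 5 bins of depth over the puck. In simulated pooled counts, 197 of 200 genes raised 2 times were recovered and 6 of 945 unchanged genes were called higher. No gene was lowered and calls of lower genes were not counted. The simulation covered only genes with at least 100 UMIs and had no differences between beads, so it does not cover scarcer genes or UMIs massed on 1 bead. No doublet removal was applied, since beads are not cells. Named genes were piwi-1, mat2a, the genes of the study's marker lists, and the 2 highest and 2 lowest other genes with at least 100 UMIs. The members and lists were chosen with earlier results of these data known. Alternatives covered minimum UMIs, piwi-1 UMIs, table version, depth pairing, place, gene filter, weighting, tissue rule and number of neighbours.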

Additional observations from a re-analysis of the deposited data

Results flagged for a closer look

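UMIs of piwi-1 were also present on barcodes outside the main comparisons. On the 24729 barcodes with fewer than 50 UMIs, 91 piwi-1 UMIs were counted on 86 barcodes, above the 3 UMIs that a count of 0 allows. That limit is not a background level for so many barcodes. The 91 UMIs were 4.58 of 10000 UMIs, compared with 5.70 on all beads with at least 50 UMIs. On stem cell beads, which were chosen for holding piwi-1, the figure was 22.3.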

How the results depend on the processing

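No paired analysis was possible because 1 puck and 1 library gave no replicates. Under 17 alternatives, 8 results gave 95 values, of which 75 did not move, 20 moved and 0 reversed. With at least 2 piwi-1 UMIs there were 297 stem cell beads, and 4.82% of beads over tissue had piwi-1. In that setting the ratio of piwi-1 neighbours was 1.73 and 493 of 2377 genes were higher. Another stem cell list gene was held by 100% of its stem cell beads. That share of beads was also 100% with at least 100 UMIs per bead and in the original table. piwi-1 was on 12.6% of beads over tissue with at least 25 UMIs, 17.2% with at least 100, and 13% with tissue set at 10% of nearest barcodes. Of 8048 genes, 1414 were 1.5 times higher and 1200 lower without depth matching, and 1566 and 1233 when standardised by depth. With at least 50 UMIs per gene these numbered 229 and 188 of 2228 genes. With no gene filter they numbered 3217 and 2583 of 12590. The main setting gave 892 and 643 of 5031. These settings also change how many genes were compared, so a moved count is not by itself a moved share. The neighbour ratio was 2.0 against beads with no piwi-1 among their 5 nearest, which that choice raises by construction, and 1.5 over 5 nearest beads. The cause of the other moves was not tested. Of 494 ratios of named genes, 410 did not move and 81 moved outside the interval of the main setting. The other 3, which had been past the fold or had an interval clear of 1, turned to the other side of 1. SMED30000258, with 20 UMIs on stem cell beads and 33 on depth-matched beads, had 1.04 (0.403 to 2.41) with 3 partners per bead. Without depth matching, SMED30035193 had 1.04 (1.01 to 1.07) and SMED30011609 had 0.988 (0.919 to 1.06). Counting weaker ratios too, list genes stayed on the same side of 1 in 429 of 442 ratios. Comparisons within tissue pieces, without the top beads, without single list genes and over 1 to 100 neighbours were chosen after seeing the data.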

Other observations

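The set of stem cell beads changed with the version of the counts more than with the second run. The first run alone, with Syrah, gave 929 stem cell beads, of which 928 were among the 968 described above. The original counts of both runs gave 768, of which 623 were shared, 81.1% of the original set and 64.4% of the Syrah-processed set. Of the 345 beads that the original counts lacked, 289 had fewer than 50 UMIs there and 55 had no piwi-1 UMI. The median ratio of the intestine list on stem cell beads was 0.682 in the original counts, against 0.707 after Syrah, and that of the stem cell list was 1.18 against 1.15.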
